A study of Mus musculus with 2 samples.

Results

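The 10 circadian clock genes described here are Clock, Npas2, Per1, Per2, Per3, Cry1, Cry2, Nr1d1, Nr1d2 and Dbp, taken by gene symbol from the 55536 genes of the deposited gene tables. All 10 were found, each under 1 identifier. They were measured by total RNA sequencing of left cerebral cortex from male mice of the strain B6CASTF1/J, a first-generation cross of C57BL/6 with CAST, and the mice were 14 days old. The input was 300 ng of RNA a library, with ERCC spike-ins, which are synthetic RNAs added in known amounts. The 2 libraries, replicates 1 and 2, form 1 group and share strain, sex, age and tissue, so no condition is compared with another and no p-value is given. The labels name a separate biosample for each library but 1 donor entry for both, and they mention 3 males, with nothing on pooling. The spread between the libraries may therefore be technical. The labels used here give no hour of the day at which the tissue was taken, so each value is a level at an unstated clock time, and a rhythm cannot be read from it.

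The circadian clock is a feedback loop of transcription. The proteins CLOCK and NPAS2 each pair with BMAL1, the product of Arntl, and activate the Per and Cry genes through E-box sequences, and the PER and CRY proteins then repress that pair. In a side loop the REV-ERB receptors, made from Nr1d1 and Nr1d2, repress Arntl while the ROR receptors activate it, and an output arm runs through DBP, which activates genes at D-box sequences. The hypothalamic suprachiasmatic nucleus is the master pacemaker in mammals, and cerebral cortex holds a local clock whose Per1 and Per2 genes can also respond to neuronal activity.

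Replicate 2 held 30862848 expected counts (estimated reads) over all genes, against 28263266 for replicate 1. Markers of the neighbouring striatum were lower in replicate 2 for 10 of 10 genes, with sums of 190 TPM in replicate 2 and 622 TPM in replicate 1 (TPM counts transcripts relative to all others in a library and is a level per length). Oligodendrocyte markers were also lower in replicate 2 (5 of 5 genes, sums of 629 and 971 TPM in replicates 2 and 1), and markers of cortical excitatory neurons were higher in it (5 of 5 genes, sums of 985 and 855 TPM in replicates 2 and 1). Of 6 markers of the suprachiasmatic nucleus, 0 reached 1 TPM in both libraries, and Six6 was listed at 0 in both. In bulk tissue, fewer cells of a type and less RNA per cell cannot be told apart.

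All 10 clock genes were above 1 TPM in both libraries, with mean levels between 8.23 and 52.5 TPM. Cry2 and Per1 had the highest means and Cry1 the lowest. In order of mean level the genes ran Cry2, Per1, Nr1d1, Dbp, Nr1d2, Clock, Npas2, Per2, Per3 and Cry1. Neighbouring pairs in this order that overlapped over their libraries were Nr1d1 with Dbp, Clock with Npas2 and Per2 with Per3, and all the other neighbours were separated. In the second transcript table Cry1, at 12.2 TPM in replicate 2 and 12.3 TPM in replicate 1, was not separated from Per2, at 15.95 TPM in replicate 2 and 11.5 TPM in replicate 1, and Per3 had a higher mean than Per2. There Per1, with a mean of 52.3 TPM, also overlapped with Dbp (51.2 TPM) and Nr1d1 (51.1 TPM). Against the 12931 nuclear protein-coding genes at 1 TPM or more in both libraries, Cry2 lay at percentile 83.6 in each library. Cry1 lay at percentile 31.8 in replicate 2 and 29.9 in replicate 1.

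**Figure D1:**
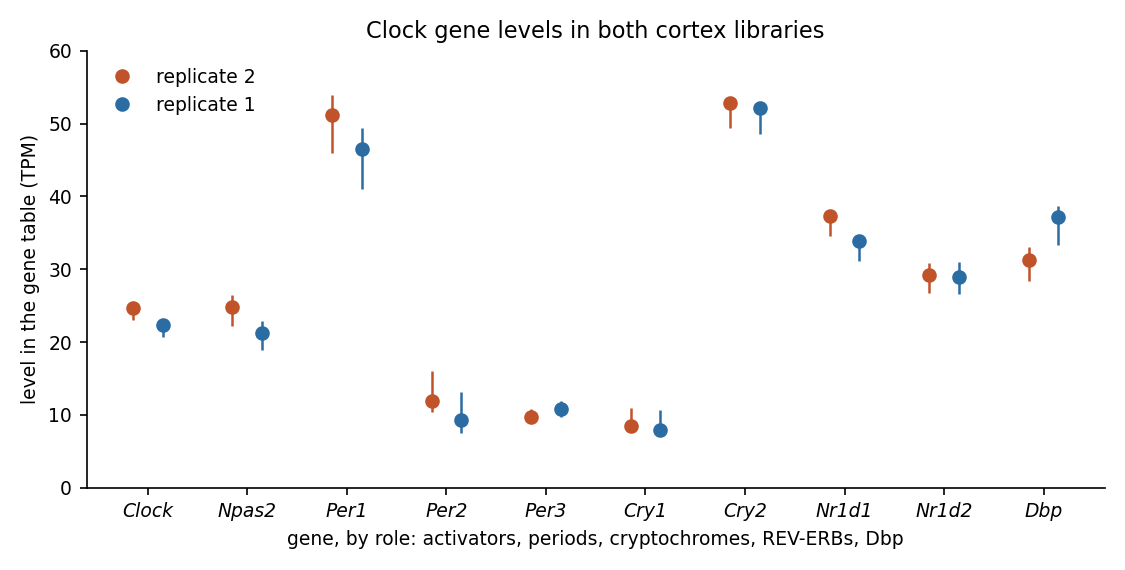
Level in TPM (vertical axis) of each clock gene by role, with replicate 2 left of replicate 1; points are the libraries and lines are the interval that the authors' quantifier gave for that library. Cry2 and Per1 lie between 46.5 and 52.8 TPM, and Per2, Per3 and Cry1 lie between 7.98 and 11.9 TPM.

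Clock and Npas2 encode alternative activating partners of BMAL1, and NPAS2 is prominent in the forebrain. Clock (ENSMUSG00000029238.11, chr5:76209868-76304792, minus strand, mm10 as for all genes here) stood at 24.7 TPM in replicate 2 and 22.3 TPM in replicate 1. Npas2 (ENSMUSG00000026077.15, chr1:39193731-39363236, plus strand) stood at 24.8 TPM in replicate 2 and 21.2 TPM in replicate 1. The means, 23.5 ± 1.71 TPM for Clock and 23.0 ± 2.56 TPM for Npas2 (SD, n = 2), differed by less than the spread between libraries, and the log2 ratio of Clock over Npas2 was 0.03 ± 0.06. Not divided by length, Clock had 3754 expected counts in replicate 2 and 3059 in replicate 1, and Npas2 had 1589 and 1302. The main transcript of Clock is 9744 nt long and that of Npas2 is 4236 nt. This transcript of Npas2, Npas2-201, stood at 18.3 TPM in replicate 2 and 16.1 TPM in replicate 1. The short Npas2-203, of 484 nt, added 6.13 TPM in replicate 2 and 5.1 TPM in replicate 1, from 47.9 and 37.3 expected counts. Clock and Npas2 both exceeded their shared partner Arntl, which stood at 15.1 TPM in replicate 2 and 13.5 TPM in replicate 1. Clock was 1.64-fold above Arntl (log2 ratio 0.71 ± 0.01) and Npas2 was 1.60-fold above it (0.68 ± 0.05), in both libraries.

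The Per genes encode the PERIOD repressors, and the 3 members differed in level. Per1 (ENSMUSG00000020893.17, chr11:69095217-69109960, plus strand) stood at 51.1 TPM in replicate 2 and 46.5 TPM in replicate 1. Per2 (ENSMUSG00000055866.9, chr1:91415982-91459324, minus strand) stood at 11.9 TPM in replicate 2 and 9.29 TPM in replicate 1. Per3 (ENSMUSG00000028957.12, chr4:151003652-151044665, minus strand) stood at 9.76 TPM in replicate 2 and 10.9 TPM in replicate 1. Both Per1 values lay above every Per2 and Per3 value. Per1 was 4.61-fold above Per2 (log2 ratio 2.20 ± 0.15) and 4.70-fold above Per3 (2.23 ± 0.20). In the second transcript table these log2 ratios were 1.94 and 1.71. Of the Per1 level, 14.1 TPM in each library lay in Per1-204, a transcript of 496 nt that the second table put at 0. Per1-204 had 114 expected counts in replicate 2 and 106 in replicate 1. Per2 and Per3 could not be ordered, because Per2 was the higher in replicate 2 and Per3 in replicate 1 (log2 ratio 0.03 ± 0.36).

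Promoter windows, each of 300 bases with 250 before the RefSeq start and 50 from it, were available for 9 of the 10 genes, 12 windows in all (RefSeq, GRCm38.p6, the assembly also called mm10). They were searched on both strands for the E-box CACGTG, its variant CACGTT, the D-box TTANGTAA, the ROR and REV-ERB element NTAGGTCA and the cAMP response element TGACGTCA. Shown first are the Per windows, because Per1 has 2 starts whose shares of RNA are compared further on and Per3 held 2 D-boxes. The Per1 windows are chr11:69098699-69098998 (start 1) and chr11:69099902-69100201 (start 2), both on the plus strand, and the Per3 window is chr4:151044616-151044915 on the minus strand. Capitals mark motif matches, and the sequences run 5′ to 3′ along the gene's strand.
Per1 start 1: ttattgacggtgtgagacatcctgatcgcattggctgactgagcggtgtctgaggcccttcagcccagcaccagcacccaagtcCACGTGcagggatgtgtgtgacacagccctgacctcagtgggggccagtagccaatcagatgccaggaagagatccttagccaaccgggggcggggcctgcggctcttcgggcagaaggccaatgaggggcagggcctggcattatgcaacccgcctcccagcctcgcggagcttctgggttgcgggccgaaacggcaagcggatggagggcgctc
Per1 start 2: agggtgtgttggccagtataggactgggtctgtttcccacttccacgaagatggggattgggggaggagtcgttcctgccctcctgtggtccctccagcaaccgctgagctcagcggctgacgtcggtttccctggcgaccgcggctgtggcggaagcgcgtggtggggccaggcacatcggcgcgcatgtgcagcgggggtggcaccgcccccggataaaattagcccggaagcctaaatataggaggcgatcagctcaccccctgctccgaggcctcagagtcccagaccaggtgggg
Per3: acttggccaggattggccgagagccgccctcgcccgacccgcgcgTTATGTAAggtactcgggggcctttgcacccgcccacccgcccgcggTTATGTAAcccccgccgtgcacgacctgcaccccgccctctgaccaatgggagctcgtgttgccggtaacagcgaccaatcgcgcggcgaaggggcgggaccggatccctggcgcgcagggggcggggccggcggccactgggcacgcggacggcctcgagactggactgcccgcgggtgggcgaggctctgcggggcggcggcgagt

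The window at Per1 start 1 held 1 E-box, at bases -166 to -161 from the start, and the window at Per1 start 2 held none of the 5 motifs. The Per3 window held the D-box sequence TTATGTAA at bases -205 to -198 and again at bases -158 to -151. A D-box match was found in 2.32% of all 32851 promoter windows of this length and an E-box match in 7.15%. Such a match describes letters in a short window and does not show that a protein binds there. Sequence outside these windows was not searched.

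Cry1 and Cry2 encode the cryptochromes, the other arm of the repressor complex, and they lay at opposite ends of the order by mean. Cry2 (ENSMUSG00000068742.11, chr2:92403646-92434043, minus strand) stood at 52.8 TPM in replicate 2 and 52.2 TPM in replicate 1, a mean of 52.5 ± 0.438 TPM. Cry1 (ENSMUSG00000020038.10, chr10:85131700-85185064, minus strand) stood at 8.48 TPM in replicate 2 and 7.98 TPM in replicate 1, a mean of 8.23 ± 0.354 TPM (SD, n = 2). Cry2 was thus 6.32-fold above Cry1 (log2 ratio of Cry1 over Cry2 -2.66 ± 0.05). Cry1 also had the fewest reads of the 10 genes, 489 expected counts in replicate 2 and 429 in replicate 1. Between the families, Per1 was 5.87-fold above Cry1 (log2 ratio 2.55 ± 0.04), whereas Cry2 was 4.96-fold above Per2 (log2 ratio of Per2 over Cry2 -2.31 ± 0.24) and 5.06-fold above Per3. In the second transcript table the log2 ratio of Per1 over Cry1 was 2.08.

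The cryptochrome windows are shown because the genes lie at opposite ends of the order by mean, and both held an E-box variant. They are chr10:85185005-85185304 for Cry1 and chr2:92434020-92434319 for Cry2, both on the minus strand.
Cry1: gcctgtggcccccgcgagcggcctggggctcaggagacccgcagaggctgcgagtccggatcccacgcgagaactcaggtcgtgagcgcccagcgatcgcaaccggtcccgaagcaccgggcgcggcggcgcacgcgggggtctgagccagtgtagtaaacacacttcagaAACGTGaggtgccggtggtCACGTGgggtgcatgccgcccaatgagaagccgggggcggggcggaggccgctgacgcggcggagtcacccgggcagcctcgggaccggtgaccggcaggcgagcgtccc
Cry2: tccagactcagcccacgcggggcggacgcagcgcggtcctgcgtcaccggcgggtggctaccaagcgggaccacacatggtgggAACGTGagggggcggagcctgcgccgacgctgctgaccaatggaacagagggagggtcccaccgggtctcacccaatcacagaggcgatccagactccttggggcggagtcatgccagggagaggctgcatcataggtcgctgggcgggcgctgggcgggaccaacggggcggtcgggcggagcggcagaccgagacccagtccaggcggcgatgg

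The Cry1 window held an E-box at bases -60 to -55 and the variant at bases -79 to -74. The Cry2 window held the variant at bases -166 to -161 and no E-box. In both genes the variant is on the opposite strand and therefore reads AACGTG. Variant matches were found in 4.68% of all windows.

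**Figure D2:**
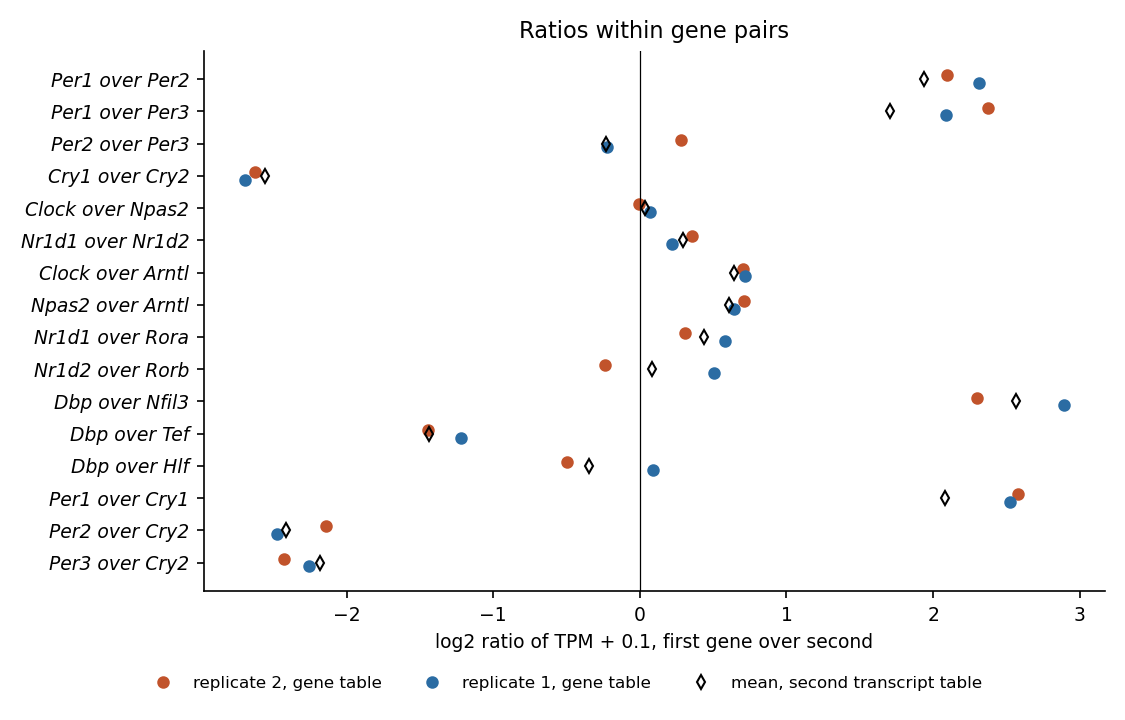
Log2 ratio of TPM + 0.1 within 16 gene pairs (horizontal axis, first gene over second); filled points are replicates 2 and 1 of the gene table and diamonds are the mean of the second transcript table. The diamonds lie on the same side of 0 as both points in the 12 pairs whose genes were separated, and the points of Per2 over Per3, Clock over Npas2, Nr1d2 over Rorb and Dbp over Hlf lie on opposite sides of 0.

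Nr1d1 and Nr1d2 encode the REV-ERBα and REV-ERBβ receptors, which repress Arntl. Nr1d1 (ENSMUSG00000020889.11, chr11:98767932-98775333, minus strand) stood at 37.3 TPM in replicate 2 and 33.9 TPM in replicate 1. Nr1d2 (ENSMUSG00000021775.11, chr14:18204054-18239127, minus strand) stood at 29.2 TPM in replicate 2 and 29.0 TPM in replicate 1. Nr1d1 was the higher in both libraries, by 1.22-fold (log2 ratio 0.29 ± 0.09). This direction holds per length only, since expected counts not divided by length gave a mean log2 ratio of -0.24. Part of Nr1d1, 263 of its 3077 exonic nt, lies over exons of Thra on the opposite strand, and Thra stood at 438 TPM in replicate 2 and 445 TPM in replicate 1. Whether strand was used in counting is not given in the sources used here, so reads in that stretch cannot be assigned with certainty.

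Of the ROR receptors that oppose them at Arntl, Rora stood at 30.1 TPM in replicate 2 and 22.6 TPM in replicate 1, and Nr1d1 was 1.36-fold above it (log2 ratio 0.45 ± 0.19). Without division by length that ratio was -0.79. Rorb stood at 34.4 TPM in replicate 2 and 20.4 TPM in replicate 1, above Nr1d2 in replicate 2 and below it in replicate 1. The Nr1d1 window, chr11:98775328-98775627 on the minus strand, is shown because its match lies nearest to the start of all those found.
Nr1d1: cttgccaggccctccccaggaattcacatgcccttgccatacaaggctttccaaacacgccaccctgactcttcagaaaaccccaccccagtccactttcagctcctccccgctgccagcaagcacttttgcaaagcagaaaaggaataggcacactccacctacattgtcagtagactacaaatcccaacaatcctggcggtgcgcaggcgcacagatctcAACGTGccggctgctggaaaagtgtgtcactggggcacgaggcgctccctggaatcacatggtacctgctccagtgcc

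This window held the E-box variant at bases -28 to -23. In all, an E-box was found in 2 of the 12 clock gene windows, the variant in 3 and a D-box in 1, and 7 windows held no match. The empty windows were all those of Clock and those of Npas2, Per1 start 2, Nr1d2 and Dbp. Clock start 3 lay near no annotated transcript start. The Dbp start lay near those of Dbp-203 and Dbp-204 and farther from that of Dbp-201, its main transcript. No window was available for Per2. No match overlapped another. The ROR and REV-ERB element and the cAMP response element were found in 0 of the 12 windows, against 2.59% and 1.79% of all windows.

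**Figure D3:**
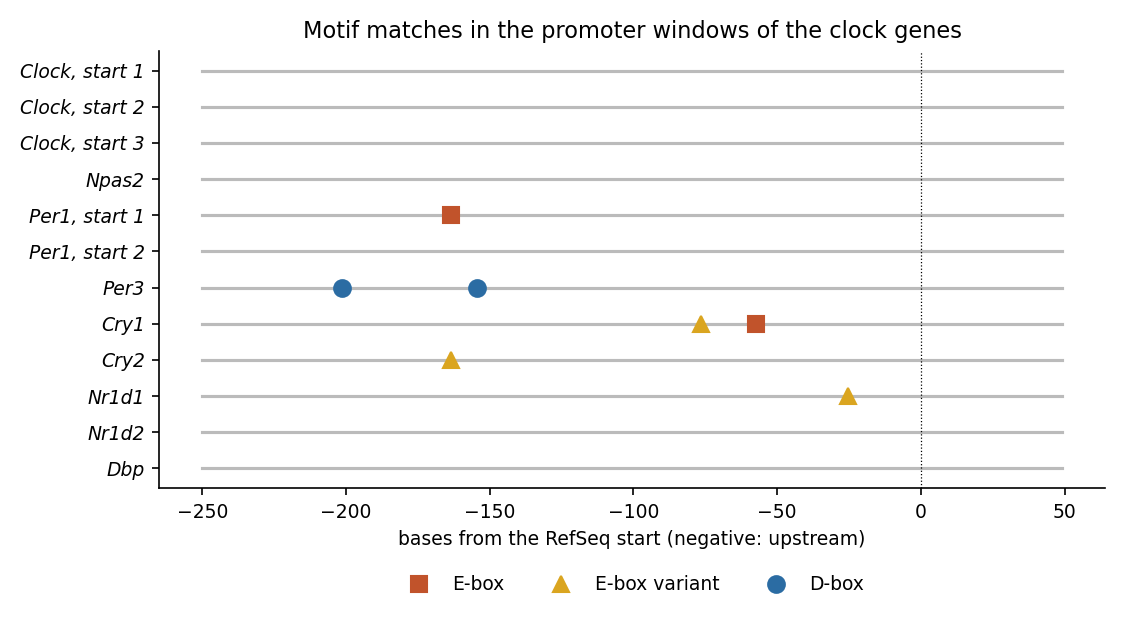
Motif matches in the 12 promoter windows of 9 clock genes, by bases from the RefSeq start (horizontal axis, negative is upstream); grey lines are the windows and symbols the matches. The symbols lie in the windows of Per1 start 1, Per3, Cry1, Cry2 and Nr1d1, between bases -205 and -23.

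Dbp encodes a transcription factor of the PAR bZIP family, an output of the clock. Dbp (ENSMUSG00000059824.12, chr7:45705088-45710203, plus strand) stood at 31.3 TPM in replicate 2 and 37.2 TPM in replicate 1, a mean of 34.2 ± 4.15 TPM, the largest SD of the 10 genes. The related activator Tef was 2.52-fold above Dbp (log2 ratio of Dbp over Tef -1.33 ± 0.16), at 85.5 TPM in replicate 2 and 86.5 TPM in replicate 1. Dbp and the other relative, Hlf (44.1 TPM in replicate 2 and 34.9 TPM in replicate 1), could not be ordered. Nfil3, a repressor at D-boxes, was the lowest of these genes at 6.27 TPM in replicate 2 and 4.92 TPM in replicate 1, and Dbp was 6.05-fold above it (log2 ratio 2.60 ± 0.42). Dbp shares 539 of its 2993 exonic nt with Sphk2 on the opposite strand, which stood at 14.9 TPM in replicate 2 and 13.2 TPM in replicate 1.

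Between the libraries Per2 differed most of the clock genes, and none differed by 1.5-fold. Differences were taken as log2 CPM (counts relative to library size), replicate 2 minus replicate 1, scaled by TMM, a trimmed mean over genes. With 1 library on each side they describe these libraries only. The median over the 10 genes was 0.12, with 8 genes higher and 2 lower in replicate 2, beside a median of -0.00034 over all 18965 genes tested, of which 9467 were higher and 9498 lower. The median size of the difference, sign ignored, was 0.167 for the clock genes, beside 0.142 for all genes tested and 0.1002 for the 12625 genes averaging 100 counts or more, as all 10 clock genes do. Scaled by spike-ins, Per3 was at 0.02 in place of -0.02, and the other 9 directions were the same under every scaling tried.

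Past 1.5-fold there were 0 of the 10 clock genes in either direction, beside 4.35% of all genes tested past it as higher and 6.61% as lower. Higher in replicate 2 by over 25% was 1 clock gene, Per2, beside 10.7% of all genes, and higher in replicate 1 by over 25% were 0, beside 13.9%. Per2 had 1279 expected counts in replicate 2, against 860 in replicate 1. Its log2 difference was 0.47, or 1.39-fold. Of all genes tested, 14.8% differed by at least as much as Per2 in either direction. Of genes whose counts averaged 100 or more, 4.66% did. Per2 is named here as the largest difference of the 10 clock genes, so neither share is a test.

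Counting error alone allows a difference of up to about 2 standard errors, computed from the counts. Past this bound and higher in replicate 2 were 6 clock genes (Clock, Npas2, Per1, Per2, Nr1d1 and Nr1d2), beside 14.1% of all genes tested and 19.2% of those averaging 100 counts or more. Past it and lower was 1, Dbp, beside 12.9% and 15.9%. The bound narrows as counts rise, and the shares among genes with counts like those of the clock genes were not computed. Clock, Npas2 and Per1 had nearly equal differences, of 0.20, 0.19 and 0.19, and Nr1d1 and Nr1d2 had 0.15 and 0.10. Dbp had -0.24, with 999 expected counts in replicate 2 and 1099 in replicate 1. Cry1 (0.09), Cry2 (0.05) and Per3 (-0.02) were within counting error, which for Cry1 was 0.19. The calls of Nr1d2 and Cry2 depended on the scaling. Scaled by total counts, Nr1d2 was at 0.07, within its bound of 0.09, and scaled by spike-ins, Cry2 was at 0.08, past its bound of 0.07. As TPM, Nr1d2 was nearly level, at 29.2 in replicate 2 and 29.0 in replicate 1. On the TPM scale, the quantifier's intervals of the libraries lay apart for 2 clock genes higher in replicate 2, beside 5.61% of all genes tested, and for 1 lower, beside 4.68%. For Clock they ran from 23.0 to 25.1 TPM in replicate 2 and from 20.6 to 22.7 TPM in replicate 1. Nr1d1 had 34.6 to 37.9 TPM in replicate 2 and 31.1 to 34.5 TPM in replicate 1, a gap far smaller than either interval. The lower gene was Dbp, with 28.4 to 33.0 TPM in replicate 2 and 33.4 to 38.7 TPM in replicate 1. The interval of Per2 was wide for its level, at 10.4 to 16.1 TPM in replicate 2 and 7.48 to 13.2 TPM in replicate 1. It overlapped between the libraries. For the coding transcript Per2-201 alone, with 1277 and 856 expected counts in replicates 2 and 1, the intervals lay apart. They ran from 10.006 to 11.2 TPM in replicate 2 and from 7.06 to 8.08 TPM in replicate 1. The intervals of Clock-205, Npas2-201, Nr1d1-201 and Nr1d2-201 also lay apart, each higher in replicate 2. Those of Per1-201, Per3-201, Cry1-201, Cry2-201 and Dbp-201 overlapped. For Dbp-201 they ran from 18.7 to 23.5 TPM in replicate 2 and from 21.8 to 27.1 TPM in replicate 1. The share of all transcripts with intervals apart was not counted. The short Per2-202, with 2.42 and 3.58 expected counts in replicates 2 and 1, had upper bounds of 5.27 and 5.46 TPM.

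**Figure D4:**
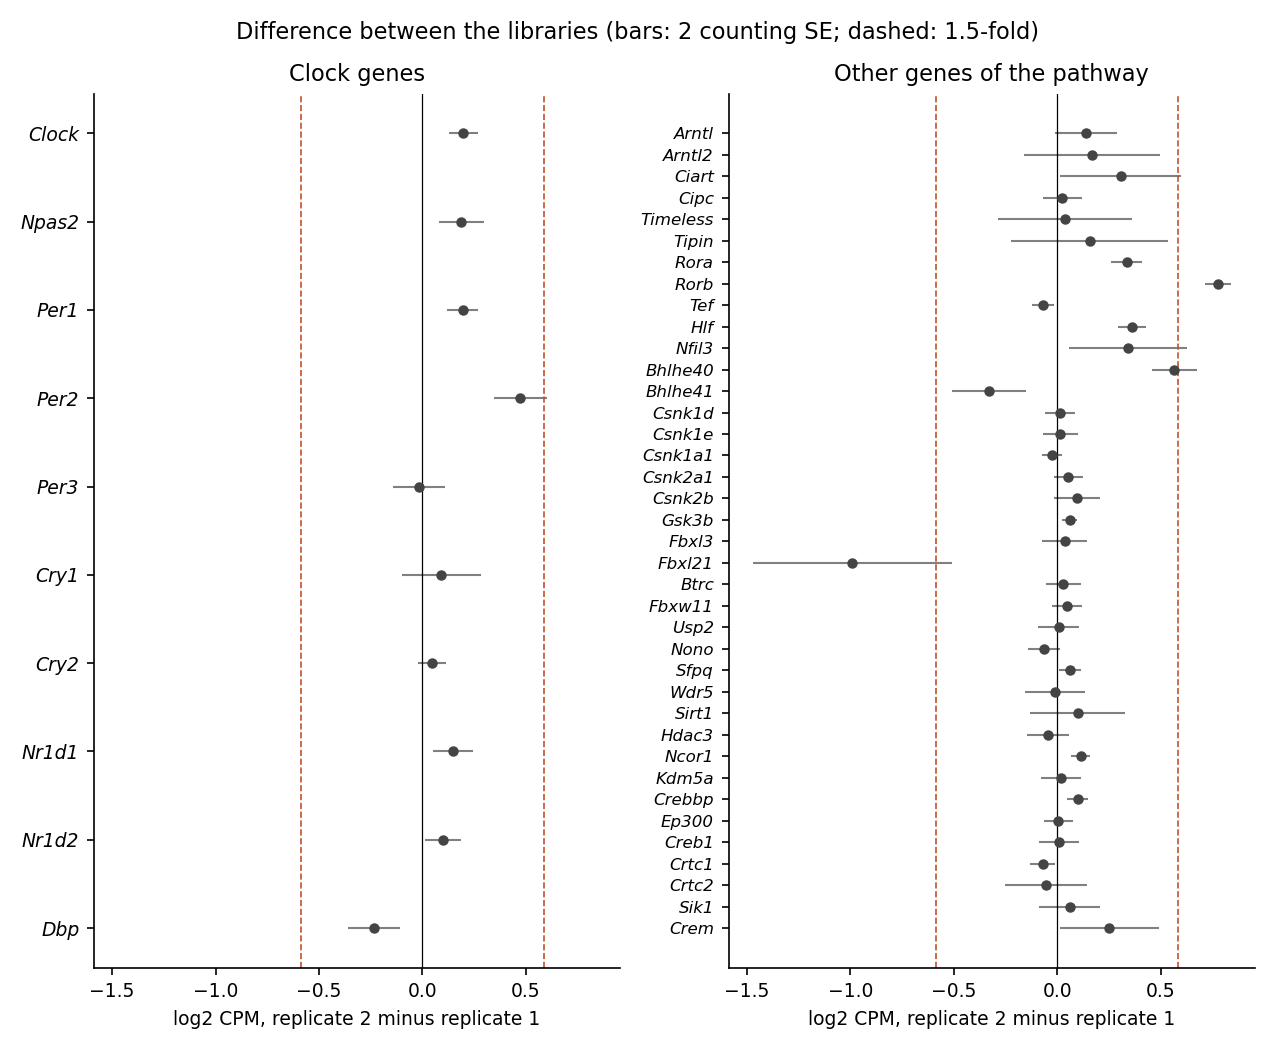
Difference between the libraries in log2 CPM, replicate 2 minus replicate 1 (horizontal axes), for the clock genes and for 38 other genes of the pathway; bars are 2 counting standard errors and dashed lines mark 1.5-fold. Each clock gene lies between -0.24 and 0.47, and of the others Rorb (0.78) and Fbxl21 (-0.99) lie outside the dashed lines.

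Other lists of genes were set beside these differences. Of 13 immediate early genes, which neurons switch on with activity, 13 were higher in replicate 2 (median 0.71, range 0.07 to 1.26), and 7 of them were past 1.5-fold. Their summed level was 353 TPM in replicate 2 and 220 TPM in replicate 1. Past counting error were 11 of the 13, while Npas4 (0.07) and Btg2 (0.08) were within it. Per1 and Per2, which can respond to the same signals, were higher in replicate 2 by less than the median of that list. Of 6 genes known to be induced by glucocorticoid, 4 were higher and 2 lower (median 0.11), and Fkbp5 was past 1.5-fold and lower, at 24.0 TPM in replicate 2 and 35.2 TPM in replicate 1. The striatal markers had a median of -1.93 (range -2.84 to -0.58) and the oligodendrocyte markers one of -0.64. Markers of cortical excitatory neurons had a median of 0.44. Those of astrocytes, microglia and endothelium had medians of -0.02, 0.10 and 0.13. Of 4 choroid plexus markers, 3 were higher and 1 lower in replicate 2 (median 1.07, sums of 124 TPM in replicate 2 and 34.3 TPM in replicate 1), and Ttr made up most of the sums, at 118 TPM in replicate 2 and 30.4 TPM in replicate 1. This list was split, since Kl (0.18) and Sostdc1 (-0.03) were within counting error. Ttr (1.96) and Folr1 (2.46) were past it, Folr1 from only 27 and 3 expected counts in replicates 2 and 1. The part of these lists in the clock gene differences was not tested.

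The other genes of the clock pathway, 39 in a list of partners, regulators and modifiers, were also compared between the libraries. Of these, 38 passed the filter on low counts, and the same 38 reached 1 TPM in both libraries. Their median difference was 0.04, with 29 higher and 9 lower in replicate 2. Rorb was the 1 gene past 1.5-fold as higher (0.78), and Fbxl21, which encodes a ubiquitin ligase subunit that acts on cryptochromes, the 1 past it as lower. Fbxl21 stood at 1.41 TPM in replicate 2 and 3.46 TPM in replicate 1, a difference of -0.99 from only 55 and 104 expected counts in replicates 2 and 1.

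Among the 6 partners, Cipc, an inhibitor of CLOCK, was the highest at 32.4 TPM in replicate 2 and 31.3 TPM in replicate 1. Arntl came next, and Timeless was the lowest by mean, at 4.51 TPM in replicate 2 and 3.19 TPM in replicate 1. Of the DEC repressors, which compete at E-boxes, Bhlhe40 was higher in replicate 2 (35.2 TPM, against 24.7 TPM in replicate 1, a difference of 0.57) and Bhlhe41 lower (5.65 TPM, against 6.98 TPM in replicate 1, -0.33). Several modifier genes stood above every clock gene. Csnk1a1, a casein kinase 1 gene, was the highest of 11 kinase and ubiquitin ligase genes at 115 TPM in replicate 2 and 125 TPM in replicate 1. Csnk2b had the next mean, at 103 TPM in replicate 2 and 89.6 TPM in replicate 1. Csnk1d and Csnk1e, whose kinases phosphorylate PER, differed by 0.01 each on the log2 scale. Of 9 PER-complex and chromatin genes, Sfpq (127 TPM in replicate 2 and 125 TPM in replicate 1) and Ncor1, a corepressor used by the REV-ERBs (111 TPM in replicate 2 and 115 TPM in replicate 1), were highest and Sirt1 was lowest. Of 5 genes of CREB input, a route by which signals reach Per1, Crtc1 was highest, at 49.6 TPM in replicate 2 and 54.8 TPM in replicate 1, and Sik1 lowest.

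The 10 clock genes have 41 annotated transcripts, and for 8 of the 10 a single transcript held over 50% of the gene's RNA in both libraries. By mean share, both transcript tables ranked the same transcript first for all 10, though in replicate 2 of the second table Per1-206 (40.92%) and Per1-201 (40.91%) were level. Nr1d1-201 (97.1% ± 0.594 of Nr1d1) and Cry1-201 (96.4% ± 0.361) were nearly alone, and Per2-201 (88.5% ± 5.49) and Cry2-201 (82.8% ± 3.12) followed (SD, n = 2). The rest of Per2 was Per2-202, of 231 nt, with 2.42 and 3.58 expected counts in replicates 2 and 1. The second table gave Per2-201 100% of Per2 in each library. Npas2-201 held 74.9% ± 1.46, and a transcript of 484 nt, Npas2-203, held 24.7% in replicate 2 and 24.1% in replicate 1. Npas2-203 had only 47.9 and 37.3 expected counts in replicates 2 and 1, beside 1538 and 1265 for Npas2-201. Dbp-201 held 69.8% ± 0.969. Clock-205 held 50.8% ± 1.95 of Clock in the first table and 37.9% in the second table. By start site, the first of the 3 annotated starts of Clock held 69.0% ± 0.373 of its RNA in the first table and 53.6% in the second table, and the start 244 bases downstream held 19.6% ± 1.71 in the first table, and 34.4% in replicate 2 and 31.6% in replicate 1 in the second table. Both tables thus gave Clock more RNA from the first start than from any other.

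In the first transcript table, part of the RNA of Clock, Per3, Cry1, Nr1d2 and Dbp was assigned to transcripts annotated as retained introns. For Per3 this share was 23.8% in replicate 2 and 29.5% in replicate 1, and Per3-201, its main coding transcript, held 74.7% in replicate 2 and 56.7% in replicate 1. For Nr1d2 the share was 19.4% in replicate 2 and 29.0% in replicate 1. Both genes lay above the median over 7533 protein-coding genes with such a transcript, 10.7% in replicate 2 and 11.2% in replicate 1, as did Clock (14.3% ± 2.82) and Dbp (15.6% ± 0.879), while Cry1 (3.59% ± 0.412) lay below it. Part of the Nr1d2 share was Nr1d2-203, of 687 nt, with only 23.1 and 37.7 expected counts in replicates 2 and 1. For Nr1d2-202, the second table gave 8.81% and 13.0% in replicates 2 and 1, against 12.8% and 17.4% in the first. For Dbp-202 the mean share was 10.4% in the second table and 6.5% in the first.

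Per1 was the clock gene whose RNA was most divided between start sites. Its transcripts begin at 4 places, and no transcript held over 50% in both libraries. Per1-201, from the start at 69098948 that matches start 1 above, held 42.8% in replicate 2 and 54.9% in replicate 1. Per1-204 and Per1-206, from the downstream starts at 69100152 to 69100158 that match start 2, together held 46.3% in replicate 2 and 31.3% in replicate 1. Per1-202, from the first annotated start, held 10.9% in replicate 2 and 13.7% in replicate 1.

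In TPM, start 2 gave 23.7 in replicate 2 and 14.6 in replicate 1, while start 1 gave 21.9 in replicate 2 and 25.5 in replicate 1. The second transcript table gave 22.4 TPM in replicate 2 and 14.8 TPM in replicate 1 at start 2, and 22.4 TPM in replicate 2 and 23.4 TPM in replicate 1 at start 1. In both tables the value at start 2 was higher in replicate 2 and the value at start 1 higher in replicate 1. In the first table the difference at start 2 lay in Per1-206, at 9.54 TPM in replicate 2 and 0.49 TPM in replicate 1. The quantifier's own intervals do not separate the libraries at this level of detail. For Per1-206 they ran from 1.51 to 22.7 TPM in replicate 2 and from 0.00012 to 14.5 TPM in replicate 1, and for Per1-201 from 6.84 to 27.7 TPM in replicate 2 and from 9.15 to 25.2 TPM in replicate 1. The tables also divided start 2 differently, since Per1-204, of 496 nt, stood at 14.1 TPM in each library in the first table and at 0 in the second table.

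**Figure D5:**
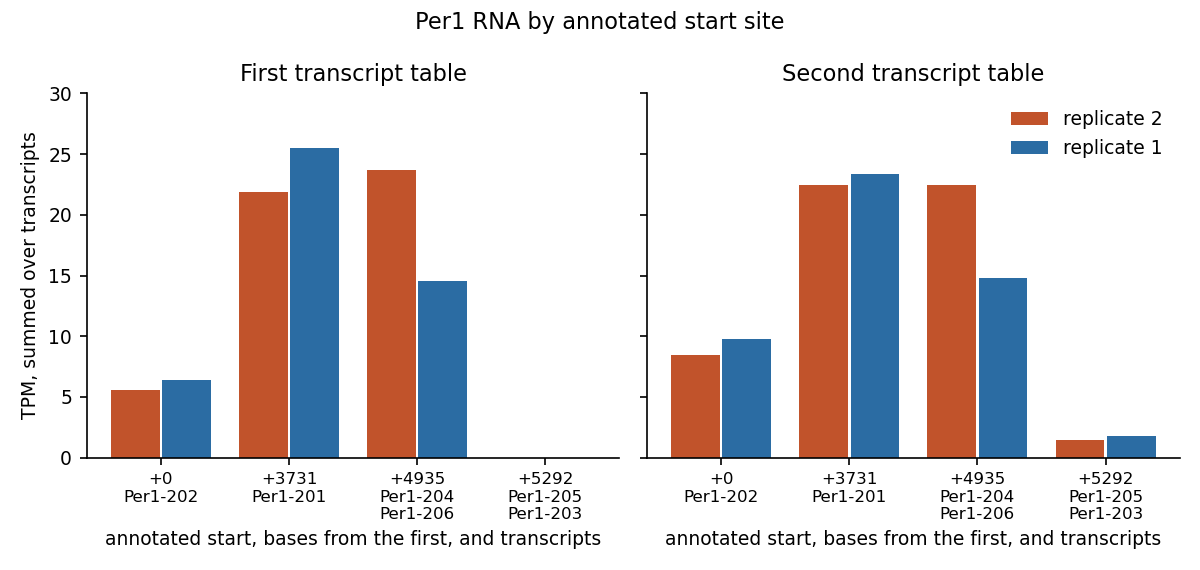
Per1 RNA summed by annotated start site in TPM (vertical axis, from 0), with the first transcript table left and the second right; bars are single libraries, replicate 2 left of replicate 1, with no error shown. At the start of Per1-204 and Per1-206 replicate 2 stands at 23.7 and 22.4 TPM in the first and the second table, and replicate 1 at 14.6 and 14.8 TPM.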

How the data were processed

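Per the file headers and deposited descriptions, the authors aligned reads to mm10 transcripts of GENCODE M21 and derived a gene table and the first transcript table of each library, and they made the second transcript table from the reads themselves. The deposited expected counts are estimated reads, not normalized. The deposited TPM values are scaled over every entry of a table, spike-ins too, and come with the authors' interval bounds. The deposited percent values divide each gene's TPM among its transcripts. The aligner, the quantifiers and any use of strand were not found in the sources used here. Entries that name no gene, nearly all spike-ins, took 0.387% of the counts in replicate 2 and 0.404% in replicate 1 and were left out of library sizes. Reads of the CAST allele were set against the C57BL/6 assembly, and what this does to the values was not tested.

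All 55536 gene identifiers matched GENCODE M21. For differences, expected counts were rounded to whole numbers and genes with fewer than 10 counts in each library were dropped. Log2 CPM then came from edgeR 4.0.16 (R 4.3.3), with a prior count of 2 and TMM scaling, a step tested on simulated data. DESeq2 1.42.0 gave alternative size factors. Python 3.11.15, numpy 2.4.6, pandas 2.3.3 and matplotlib 3.10.9 did the rest. Pair ratios are log2 of TPM + 0.1, and genes of a pair were ordered only if the libraries had the same sign and the mean was larger than the SD. Expected counts of 9 of the 10 genes were whole within 0.005, all but Nr1d2. Counting errors cover counting only. All 10 clock genes are named with values, and other genes by count, range, the 2 highest, the lowest and any past 1.5-fold; other genes of the lists beyond these were named after their values were seen. The members, lists and pairs were chosen with earlier results of these data known. Motifs were matched as text. The values of 1 gene of the pathway list are not reported here.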

Additional observations from a re-analysis of the deposited data

How the results depend on the processing

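No clock gene passed 1.5-fold with DESeq2 size factors, with scaling by total counts or by spike-ins, with a prior count of 0.5, with the second transcript table, with no filter on low counts, over genes with a mean count of 100 or more or with 2-fold as the bound, and 1 passed the bound of 25%. The share of all genes past the fold was 11.0% in the reported setting, 23.2% with no filter and 2.93% with a mean count of 100 or more. The median difference ran from 0.094 (total counts) to 0.155 (spike-ins), and the difference of Per2 from 0.44 to 0.51. The main transcript of Nr1d1 is 2721 nt long and that of Nr1d2 is 4663 nt. Expected counts, which unlike TPM are not divided by length, turned Nr1d1 over Nr1d2 to -0.24 and Nr1d1 over Rora to -0.79. On that scale Dbp over Tef moved from -1.33 to -2.50, Clock over Arntl from 0.71 to 2.16, Dbp over Hlf from -0.20 to -1.85 and Clock over Npas2 from 0.03 to 1.24, and Per1 over Per2 and Per1 over Per3 were 1.55 and 1.57. Per2 and Per3 over Cry2 were -1.78 and -1.80. It gave a direction to 15 of 16 pairs in place of 12. The second transcript table gave the 12 ordered pairs the same direction and ordered none of the other 4. It put the 10 genes at 12.3 to 72.6 TPM, 1.07 times the gene table for Per1 in each library, beside a median of 1.54 in replicate 2 and 1.56 in replicate 1 over protein-coding genes at 1 TPM or more in both libraries. In that table Per1 (52.3 TPM) overlapped with Dbp (51.2) and Nr1d1 (51.1), and Per2 (13.7) with Per3 (15.9) and Cry1 (12.3). TPM over nuclear protein-coding genes alone ran from 17.6 to 112. Leaving out a library left the level of the other one and no difference. No paired analysis was possible because the libraries form 1 group. Cry1 had the largest counting error of the 10 genes.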
